A study of Saccharomyces cerevisiae with 4 samples.

Results

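The genes described here are 10 regulators and effectors of meiosis and sporulation in the budding yeast Saccharomyces cerevisiae, out of 6301 open reading frames (ORFs) on the array. They were chosen by systematic name and not by a rule on their values, though earlier results of these data were known. They are IME1 (YJR094C), IME2 (YJL106W), IME4 (YGL192W), UME6 (YDR207C), RIM4 (YHL024W), RIM15 (YFL033C), NDT80 (YHR124W), SPO11 (YHL022C), AMA1 (YGR225W) and SPS100 (YHR139C). Strain S288c was taken to mid log phase in nitrogen-rich synthetic complete medium (SC), shaken at 160 rpm and 30°C, until the OD600 reached 0.4. The nitrogen-poor cells were moved from there to minimal medium (MM) for 12 h, with 0.025% ammonium sulfate and with neither adenine nor amino acids. The mRNA of both media, primed with oligo-dT, was labelled with the dyes Cy3 and Cy5 and hybridized together on 4 arrays of spotted ORFs. In 2 arrays MM carried Cy5 and in 2 arrays SC did, per the titles, with replicate numbers 1 and 2 in each orientation. The labels give no ploidy, mating type or carbon source, and all cells are of 1 strain at 1 time in MM.

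Budding yeast leaves the mitotic cycle for meiosis when nitrogen and a fermentable carbon source are lacking, and, in the wild type, only in cells that carry both mating types. Signals of nutrition and mating type meet at IME1, the transcriptional activator that starts the program. Its product acts through Ume6 on early genes of DNA replication and recombination, Ndt80 then opens the middle genes of the meiotic divisions, and late genes build the spore wall. A transcript measured in MM over SC tells how its share of mRNA differed between media; it does not tell whether cells entered meiosis.

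Each value is the log2 ratio of MM over SC on an array, so 1 stands for a 2-fold higher level in MM and 0 for no difference. The dye annotations of the channels contradict the array titles. The direction rests on the check given with the processing, and in the opposite direction every sign below would turn. A spot that was not well measured is blank. The 10 genes held 28 values on their 40 spots and 12 blanks, 5 on each array of replicate 2 and 1 on each array of replicate 1. A blank records a dim spot and no direction. Values on all 4 arrays were held by 5 of the 10 genes, beside 59.8% of all ORFs. In 4 stretches of the table, in the order of systematic names, the replicates did not correlate (r = 0.042 inside and 0.959 outside, across genes that are not independent replicates), and 0 of the 10 genes lie there. Limma draws on all genes for the spread of each, so calls are also given with these stretches left out where that changes them. That fit took 1 common variance for all genes and called 1920 of 2994, so a call made only there is weak.

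Of the 28 values, 26 were above 0, beside 51.0% of all values in the table. The exceptions were 1 value of IME4 and 1 of UME6, both within 0.03 of 0. Of the 5 genes measured on every array, the spore wall gene SPS100 and the meiotic RNA-binding protein gene RIM4 rose in MM (called by limma where the adjusted p was 0.05 or less), and none fell (0 also at an unadjusted p of 0.05). Over all 3765 genes fitted, 16.5% were called higher and 17% lower in MM. The median log2 ratio of the 5 genes was 0.47, and that of all genes fitted was -0.02. IME1 itself was measured in replicate 1 only, at more than 1.8 on both arrays, and no test was made of it. In such bulk mRNA, a change in the share of cells that express a gene and a change in its RNA per cell cannot be told apart.

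**Figure D1:**
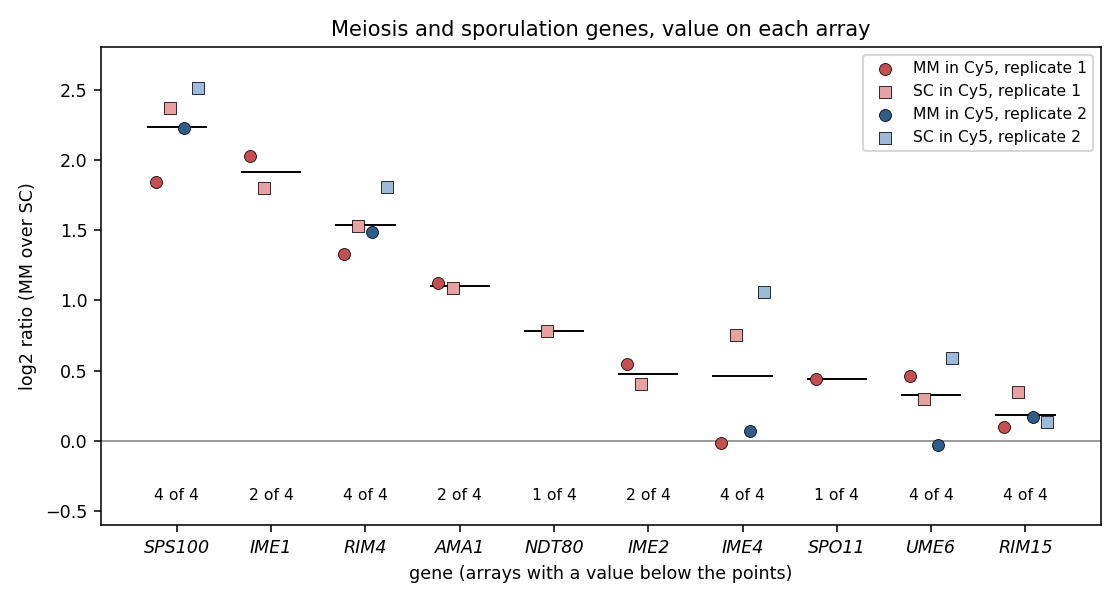
Log2 ratio of MM over SC (vertical axis) for the 10 genes (horizontal axis), with a point per array, coloured by replicate number and shaped by dye orientation, a line at the mean and the number of arrays with a value under each gene. SPS100, IME1, RIM4 and AMA1 lie above 1 on every array with a value, and only IME4 and UME6 have a value below 0.

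At the top of the cascade, IME1 had a log2 ratio of 2.02 (MM in Cy5) and 1.80 (SC in Cy5) in replicate 1, and was blank on both arrays of replicate 2. Its mean of 1.91, a 3.77-fold higher level in MM, comes from 1 replicate and has no replicate error. Both orientations gave a ratio of at least 3.49-fold. Among the 1261 ORFs that were likewise measured on both arrays of replicate 1 and blank on both of replicate 2, 15 (1.19%) had a ratio at least as high. The median of these ORFs was 0.12.

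IME2 encodes a meiosis-specific protein kinase that acts downstream of IME1. Its log2 ratio was 0.55 (MM in Cy5) and 0.41 (SC in Cy5), both in replicate 1, and replicate 2 was blank. The mean of 0.48 was reached by 286 of the 1261 ORFs with the same arrays (22.7%). The ratio of IME2 was thus lower than that of IME1 on both arrays, by more than the gap of 0.14 between its orientations.

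UME6 encodes the DNA-binding protein that represses early meiotic genes in growing cells and recruits Ime1 in starved ones. It was measured at 0.46 and 0.30 in replicate 1 (MM in Cy5, then SC in Cy5) and at -0.03 and 0.59 in replicate 2. The replicate means of 0.38 and 0.28 were close, while the arrays of replicate 2 lay 0.62 apart. The mean of 0.33 ± 0.07 (SD, n = 2) was not called, with an adjusted p of 0.0850 by limma and a 95% interval of 0.03 to 0.62. It passed in limma with the replicate number as a random block (adjusted p 0.0405), whose estimated correlation was negative, at -0.24. It also passed with the 4 stretches left out of the fit (0.0125), where all genes shared 1 variance. Without SC in Cy5 replicate 2 it was at 0.17.

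RIM15 encodes a protein kinase that nutrient signals restrain and that is needed for entry into stationary phase and into meiosis. Its values were 0.10 and 0.35 in replicate 1 and 0.17 and 0.13 in replicate 2. All 4 lay above 0, as in 29.1% of genes that had 4 values. The mean of 0.19 ± 0.05 (SD, n = 2) did not pass (adjusted p 0.211 by limma), and its 95% interval of -0.10 to 0.47 leaves out a 2-fold change.

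IME4 encodes the catalytic subunit of the enzyme that methylates adenosines in mRNA during early meiosis. In replicates 1 and 2 its log2 ratio was -0.02 and 0.07 where Cy5 marked MM, and 0.75 and 1.06 where Cy5 marked SC. The values separated by dye orientation and not by replicate, with no overlap. The mean of 0.47 ± 0.14 (SD, n = 2) was not called (adjusted p 0.0564 by limma, 95% interval 0.13 to 0.80). The adjusted p lay between 0.000319 and 0.355 over the alternatives tried, and it passed without MM in Cy5 replicate 1 (0.66, adjusted p 0.0418) and with the stretches left out.

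The difference between the orientations of IME4, MM in Cy5 minus SC in Cy5, was -0.88, and 33 of the 3765 genes (0.876%) had a difference of that size or more. The median size over all genes was 0.22. In limma's test of a dye term, IME4 had an unadjusted p of 0.00733 and an adjusted p of 0.568, so it did not pass over all genes. Of the 5 members fitted, 0 had a called dye term and 1, IME4, an unadjusted p at or under 0.05. Over all genes the dye term was called in 0.0266% and had such an unadjusted p in 8.21%. When single arrays were left out, which unbalances the dyes, the ratio of IME4 moved between 0.22 (without SC in Cy5 replicate 2) and 0.71 (without MM in Cy5 replicate 2), with 0.27 without SC in Cy5 replicate 1.

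IME4 also shares its locus with the antisense transcript RME2, which in yeast is known to block IME4 in haploid cells. The spots were made of PCR products of ORFs, so sense and antisense strands cannot be told apart. YGL193C, named after its values were seen, is an ORF that RME2 spans on its own strand. Its log2 ratio was 0.55 and 1.05 in replicate 1 and 0.63 and 0.84 in replicate 2. The mean of 0.77 ± 0.05 (SD, n = 2) was called higher in MM (adjusted p 0.0200 by limma). The part of RME2 in the values of IME4 was not tested.

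**Figure D2:**
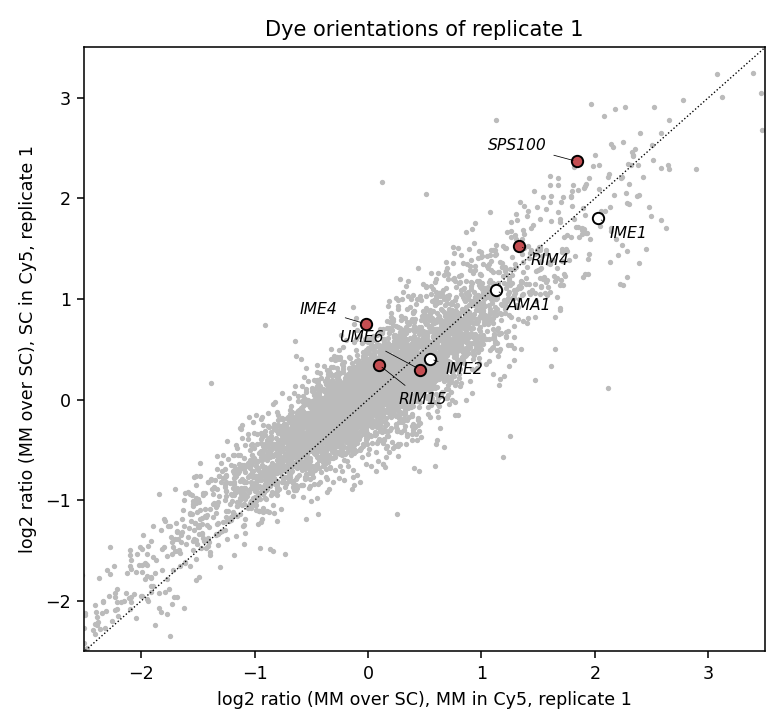
Log2 ratio of MM over SC on the replicate 1 array with MM in Cy5 (horizontal axis) against the replicate 1 array with SC in Cy5 (vertical axis), for 5749 ORFs with both values (grey, 74 of them beyond the axes). The 8 labelled genes are filled red where replicate 2 has values and open where it is blank; the dotted line marks equal values, and IME4 lies above it at -0.02 and 0.75.

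RIM4 encodes an RNA-binding protein that meiotic entry requires and that later holds back the translation of stored transcripts. It had log2 ratios of 1.33 (MM in Cy5) and 1.53 (SC in Cy5) in replicate 1, and of 1.48 and 1.81 in replicate 2. All 4 arrays showed more than a 2.5-fold higher level in MM. The mean was 1.54 ± 0.15 (SD, n = 2), a 2.90-fold rise with an adjusted p of 0.0112 by limma. Among all genes fitted, 3.03% had a ratio at least as high.

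SPO11 encodes the protein that makes the double-strand breaks of meiotic recombination. It was measured on a single array, at 0.44 with MM in Cy5 in replicate 1, and was blank on the other 3. Of the 5941 values on that array, 24.4% were at least as high. RIM4 and SPO11 are near neighbours on chromosome VIII, and only RIM4 was measured well enough for a test.

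NDT80, the transcription factor gene of the middle program, was also measured once, at 0.78 with SC in Cy5 in replicate 1. On that array 10.8% of 5844 values were at least as high. AMA1, an activator of the anaphase-promoting complex that is specific to meiosis, had log2 ratios of 1.12 (MM in Cy5) and 1.08 (SC in Cy5) in replicate 1. The orientations of AMA1 lay only 0.04 apart, and replicate 2 was blank. The paper lists AMA1 among genes whose signal was too weak to be measured in its oligo-dT microarray data, so these values need care. The paper's arrays and sequencing with priming other than oligo-dT alone, and its RT-PCR, gave AMA1 higher in MM. Here the mean of AMA1, 1.10 (2.15-fold), was reached by 58 of the 1261 ORFs with values in replicate 1 alone (4.60%).

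AMA1 is the only gene of the 10 for which the study also ordered RT-PCR primers. They are shown because they fix the stretch of the gene that an independent assay would read, though none of its values are used here.
AMA1 forward: cgtgtattggatgcaccttg
AMA1 reverse: tatacggagcaacccagtcc

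At the end of the program, SPS100 encodes a protein of the maturing spore wall. It was at 1.84 and 2.37 in replicate 1 (MM in Cy5, then SC in Cy5) and at 2.23 and 2.51 in replicate 2, the highest mean of the 10 genes. Its mean of 2.24 ± 0.19 (SD, n = 2) is a 4.71-fold higher level in MM, with an adjusted p of 0.00864 by limma. Of all genes fitted, 1.14% rose as much or more. The calls of SPS100 and RIM4 were lost only in the test with no moderation of the variance, which has 1 degree of freedom (adjusted p 0.204 and 0.209).

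SPS100 has a relative elsewhere in the genome, YGP1 (YNL160W), a cell wall gene known for its response to nutrient limitation. YGP1 was at -0.31 and -0.51 in replicate 1 and at -0.54 and 0.11 in replicate 2. Its mean of -0.31 ± 0.14 (SD, n = 2) lay on the other side of 0 from that of SPS100 and was not called (adjusted p 0.114 by limma; 0.0185 with the stretches left out). The noncoding transcript SUT169 overlaps SPS100 in the annotation, and the spots do not tell them apart.

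**Figure D3:**
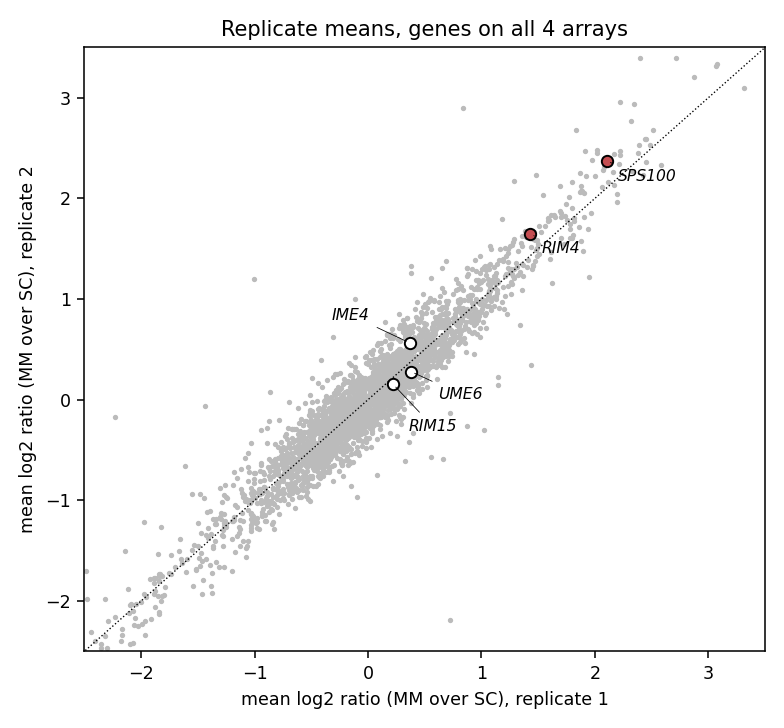
Mean log2 ratio of MM over SC of replicate 1 (horizontal axis) and of replicate 2 (vertical axis), each over both dye orientations, for 2994 genes on all 4 arrays outside the 4 stretches (grey, 47 of them beyond the axes). Labelled genes are filled red where limma called them and open where it did not; the dotted line marks equal values, and SPS100 and RIM4 stand apart from IME4, UME6 and RIM15.

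Replicate 1 gives the order of 8 genes on common ground, since both of its arrays measured them. From the highest mean they were SPS100 (2.10), IME1 (1.91), RIM4 (1.43), AMA1 (1.10), IME2 (0.48), UME6 (0.38), IME4 (0.37) and RIM15 (0.22). At least a 2-fold higher level was seen in 4 of the 8, beside 6.99% of the 5749 ORFs measured on both arrays and 5.63% of those blank in replicate 2. The order of SPS100 and IME1 changed with the dye, since IME1 was higher with MM in Cy5 and SPS100 with SC in Cy5. Of the 4 lowest genes, UME6 and RIM15 lay below IME2 on both arrays, while every other order among them changed with the dye. RIM4 stayed below SPS100 on each of the 4 arrays.

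The members' own surroundings in the pathway come from lists of 98 other genes of meiosis and sporulation, of which 40 had values on all 4 arrays. Over these 40 the median log2 ratio was 0.01, with 5 genes called higher, 7 lower and 28 not called. The shares over all 3765 genes fitted, 16.5% higher and 17% lower, also stand beside the counts of each list below. Of the 98 genes 28 lie in the stretches where replicates did not correlate. Outside the stretches 4 of 28 genes were called higher and 7 lower, beside 19.9% and 20.4% of all genes outside.

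Among 23 regulators of entry into meiosis, 16 were fitted, with 1 called higher and 3 lower and a median of -0.03. RME1 (YGR044C), the repressor of IME1 in haploid cells, was at -1.30 and -1.32 in replicate 1 and at -1.11 and -1.23 in replicate 2. It thus fell on every array, with a mean of -1.24 ± 0.10 (SD, n = 2, adjusted p 0.0128 by limma). RME1 was named after its values were seen. KAR4 (YCL055W), a transcription factor of mating that also takes part in the mRNA methylation complex of IME4, fell most, to -1.66 ± 0.08 (adjusted p 0.00928 by limma, n = 2). RIM8 (YGL045W), of the Rim101 pathway that activates IME1, was the gene called higher, at 0.72 ± 0.07 (adjusted p 0.0230 by limma, n = 2). Without MM in Cy5 replicate 2, RIM8 was no longer called (adjusted p 0.0714 by limma). RIM101 (YHL027W), the gene that names this pathway, was the remaining gene called lower, at -0.83 ± 0.12 (adjusted p 0.022 by limma, n = 2). RIM101 too was named after its values were seen.

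Of 28 early meiotic genes of recombination and chromosome pairing, 7 were fitted, with 1 called in each direction and a median of 0.00. HFM1 (YGL251C), a crossover helicase gene, rose by 0.93 ± 0.08, and NDJ1 (YOL104C), which joins telomeres to the nuclear envelope in meiosis, fell to -2.52 ± 0.32 (adjusted p 0.0169 and 0.00979 by limma, n = 2). Another 12 early genes were measured, like IME1, IME2 and AMA1, on both arrays of replicate 1 alone. All 12 had a mean above 0, with a median of 0.61, beside 58.7% and 0.12 over all 1261 such ORFs. Outside the stretches it was 10 of 10, with a median of 0.54 beside 62.5% and 0.16. No test was made of these, since they come from 1 replicate.

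Of 29 middle genes, 10 were fitted, with 3 called higher, 2 lower and a median of 0.29, which was 0.05 over the 7 outside the stretches. SPO73 (YER046W), needed for the prospore membrane, was highest at 1.40 ± 0.11 (adjusted p 0.0112 by limma, n = 2). CLB1 (YGR108W), a B-type cyclin also used in mitosis, fell most, to -1.24 ± 0.43 (adjusted p 0.0299 by limma, n = 2). CLB1 was not called without MM in Cy5 replicate 2 (-1.02, adjusted p 0.115 by limma). The 8 middle genes measured on both arrays of replicate 1 alone had 3 means above 0 and a median of -0.08, beside 58.7% and 0.12 over all such ORFs.

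Of 18 spore wall and late genes, 7 were fitted, with 0 called higher by limma (2 at an unadjusted p of 0.05) and 1 lower, and a median of 0.02. The gene called lower was SPS18 (YNL204C), at -1.20 ± 0.01 (adjusted p 0.0118 by limma, n = 2). Its single arrays spread more widely than this SD of replicate means, from -1.55 to -0.87. SPS100 was thus called higher while none of the late genes fitted was, though only 2 of the 7 lie outside the stretches. The 7 late genes with both arrays of replicate 1 alone had 6 means above 0 and a median of 0.42, beside 58.7% and 0.12 over all 1261 such ORFs. At least a 2-fold higher level was seen in 2 of these 7, beside 5.63% of such ORFs, and no test was made.

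Genes that depend on mating type bear on the labelled strain, since haploid and diploid cells differ in them. A ratio carries no level, so neither ploidy nor mating type could be read from it. Of 12 such genes 8 were fitted, with a median of -1.29. Limma called 0 of them higher (0 also at an unadjusted p of 0.05) and 5 lower, beside 16.5% and 17% of all genes fitted. The alpha pheromone gene MF(ALPHA)1 (YPL187W) fell most, to -2.04 ± 0.01 (adjusted p 0.00864 by limma, n = 2). Its single arrays spread more widely than this SD of replicate means, from -2.35 to -1.75. The other 4 genes called lower were MF(ALPHA)2, GPA1, FUS1 and FUS3, of pheromone production and response, at -1.09 to -1.87, and their part in the members' values was not tested.

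**Figure D4:**
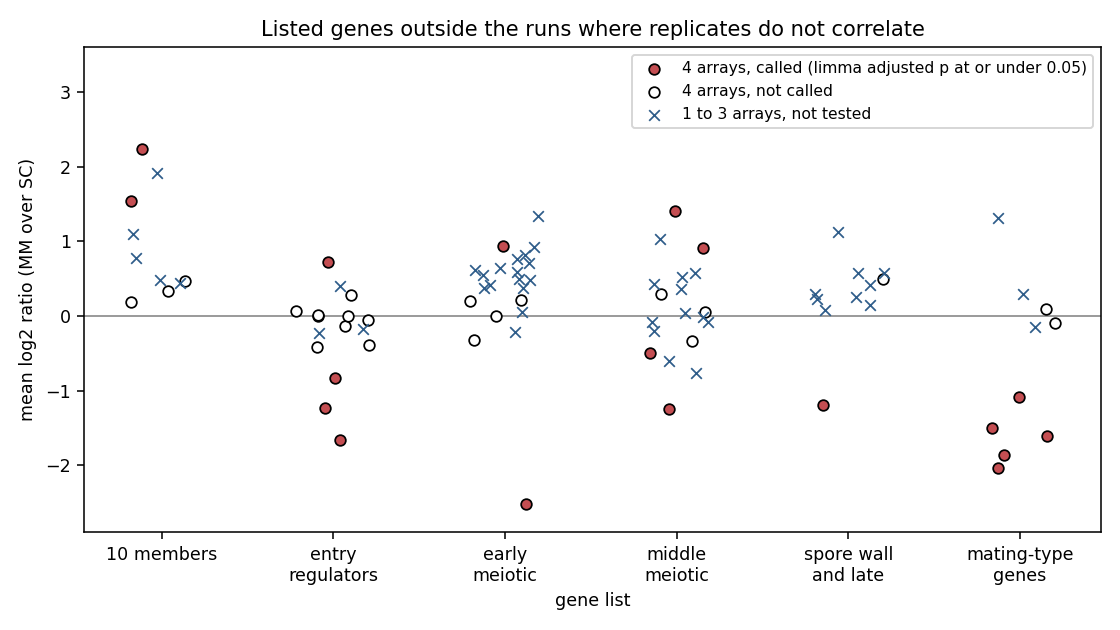
Mean log2 ratio of MM over SC (vertical axis) of the 10 genes and of 5 lists of related genes outside the stretches where replicates did not correlate (horizontal axis, a point per gene, spread sideways for sight). Red circles were called by limma, open circles were tested and not called, and blue crosses have values on 1 to 3 arrays and were not tested. The members lie above 0, as do 10 of 10 early meiotic genes measured on both arrays of replicate 1 alone. The entry, early and middle lists hold called genes above 0, the highest at 0.72, 0.93 and 1.40. Each of the 5 lists also holds called genes below 0. The lowest are at -2.52 in the early meiotic list, -2.04 in the mating-type list and -1.66 among entry regulators.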

How the data were processed

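Per the methods, the authors scanned and gridded the arrays with GenePix, subtracted background, normalized each array mean by mean over well measured spots (signal over 3 standard deviations of the background pixels) and left other spots blank. The deposited values are log2 ratios, 1 per ORF and array, with replicates not pooled. Their scale and direction were not stated. Arrays of opposite orientation correlated positively (lowest r between any pair of arrays 0.692), so none was turned. The mean of the deposited values had the sign of the MM over SC ratio in the text of the study for 5 of 5 genes, which gave the direction.

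Both orientations of a replicate number were averaged (n = 2). For genes with 4 values, limma 3.58.1 (lmFit and eBayes, R 4.3.3) was used, the mean was tested against 0, two-sided, and p-values were Benjamini-Hochberg adjusted over 3765 genes, with calls at or under 0.05. Genes with fewer values were not tested. The fit was also run on simulated data with independent normal noise and no dye effect, and no result here rests on that. The number of arrays limits the precision, and where replicate numbers mark only separate reverse transcriptions the p-values measure technical spread. The design text names 2 biological replicates with dye swaps. Same-numbered arrays deviated together (r = 0.706 across genes), but at 0.045 outside the 4 stretches that earlier analysis of these data had found.

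Gene symbols came from the RefSeq table of assembly R64 (5801 of 6301 ORFs matched). Coordinates are left out, since the build is not given in the sources used here. The primers came from the study's supplementary table. Members and lists were chosen with earlier results of these data known. Named genes are the members, in each list the called genes that rose and fell most outside the stretches, YGP1, and the genes beside RIM4 and SPO11. RME1, RIM101, YGL193C and the other mating-type genes called lower (MF(ALPHA)2, GPA1, FUS1 and FUS3) were named after their values were seen. Alternatives were array centring, fewer arrays per gene, the block, no moderation, the stretches left out and each array left out.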

Additional observations from a re-analysis of the deposited data

How the results depend on the processing

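Members called higher in MM numbered 2, and 2 to 3 when single arrays were left out, 4 with the stretches left out of the fit and 0 with no moderation (2 at an unadjusted p of 0.05). Without the stretches limma took 1 common variance for all genes and called 1920 of 2994. Listed pathway genes called higher numbered 5, against 10 of 53 with at least 3 arrays per gene and the arrays taken as independent, 0 with no moderation (3 at an unadjusted p of 0.05) and 3 to 5 with single arrays left out, the 3 without MM in Cy5 replicate 2. Those called lower numbered 7, against 11 with at least 3 arrays per gene taken as independent, 11 with the stretches left out, 0 with no moderation (4 at an unadjusted p of 0.05) and 5 to 6 with single arrays left out. With the replicate number as a random block 12 were called lower, and 3 members higher; with no replicate block 11 and 2. Among the members on all 4 arrays, the list genes chosen by rule and YGP1, the call of UME6 alone changed under that block, whose estimated correlation was -0.24. Centring each array put AMA1 at 1.07 instead of 1.10, a shift beyond the SD of its orientations though smaller than the 0.04 between them. Of the genes run under these alternatives (the members on all 4 arrays, the list genes chosen by rule and YGP1) none changed its sign; the members with fewer values were only centred, and the genes named after their values were seen and the neighbours of RIM4 and SPO11 were not run. The counts of members called lower and of called dye terms stayed at 0 in all those run. Blanks in replicate 2 leave IME1, IME2, AMA1, NDT80 and SPO11 with no replicate check.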

Other observations

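The genes around RIM4 and SPO11 on chromosome VIII did not share the high ratio of RIM4. SNF6 (YHL025W), a chromatin remodelling subunit gene beside RIM4, was at -0.67 and -0.50 in replicate 1 and at -0.95 on the 1 array of replicate 2 with a value. NPR3 (YHL023C), which lies between RIM4 and SPO11 and acts in amino acid signalling to TORC1, was at -0.02 and 0.25 in replicate 1 and at 0.25 and 0.37 in replicate 2, with a mean of 0.21 ± 0.13 (SD, n = 2, adjusted p 0.210 by limma). AIM17 (YHL021C), on the far side of SPO11, was at -1.02 and -0.72 in replicate 1 and at -0.97 and -0.20 in replicate 2, and its mean of -0.73 ± 0.20 was called lower in MM (adjusted p 0.0333 by limma, n = 2).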
